A study of Homo sapiens with 3 samples.

Results

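Caspases, the apoptosome scaffold and the inhibitors that hold caspases in check are described here through 8 genes: CASP4, CASP6, CASP8, CASP9, APAF1, XIAP, BIRC2 and CFLAR. The members were given by name, and a row was taken where its gene symbol equalled a listed name. All 8 names matched a single row each of the 20332 genes in the deposited table, and all 8 passed the minimum mean of 1 TPM (a share of each library's signal after correction for gene length, scaled to the same sum in every library) that was used for ratios, as did 11600 genes in total.

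HCC827 is a line grown from a human lung adenocarcinoma whose EGFR gene carries an activating mutation. The series holds 3 mRNA libraries from these cells: a vehicle control with DMSO, a treatment with compound 1 and a treatment with compound 2, each compound at 5 μM for 24 h. The title calls the compounds daphnane diterpenoids, plant-derived molecules, and names the ATR-dependent response to DNA damage; no time is given for the DMSO cells, and the compounds are known here only by number. Each group is a single library, so no value has a replicate error, no test was possible, and every difference is a difference between 2 libraries. The 5 epithelial markers added up to 13417 TPM in the DMSO library, 6144 TPM after compound 1 and 5256 TPM after compound 2. The keratin genes KRT8, KRT18 and KRT19 were lower in both treated libraries. EPCAM (611, 778 and 695 TPM in the DMSO, compound 1 and compound 2 libraries) and CDH1 (180, 268 and 228 TPM) were higher. The part of these differences in the results below was not tested. All 5 leukocyte markers, all 3 endothelial markers and 3 of 4 fibroblast markers stayed under 1 TPM in every library, and the fibroblast marker COL1A1 reached 1.90 TPM with DMSO. Of the lung adenocarcinoma markers, NAPSA was at 276 TPM with DMSO and at 88.5 and 82.7 TPM after compounds 1 and 2, and NKX2-1 at 19.9, 8.74 and 5.66 TPM. EGFR, also in that list, went the other way, at 680 TPM with DMSO and 1579 and 1685 TPM after compounds 1 and 2.

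Caspases are proteases made as inactive precursors that cut other proteins after aspartate. In the death-receptor route, CASP8 is activated at the receptor, and CFLAR, which encodes the inactive relative c-FLIP, competes with it there. In the mitochondrial route, cytochrome c released into the cytosol assembles the APAF1 protein into the apoptosome, which activates CASP9. Executioner caspases then dismantle the cell, while XIAP binds and blocks CASP9 and executioner caspases other than CASP6. BIRC2 encodes cIAP1, a ubiquitin ligase that shapes signalling from TNF receptors. CASP4 belongs to the inflammatory caspases, and its protein senses bacterial lipopolysaccharide in the cytosol and opens gasdermin D pores. Caspases are controlled largely at the protein level, by cleavage and binding, which mRNA values do not measure.

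The inhibitor genes XIAP and BIRC2 were higher after either compound, the executioner gene CASP6 was lower, and the other 5 members stayed within 2-fold of the DMSO library. XIAP was at 11.96 TPM in the DMSO library, 72.1 TPM after compound 1 and 67.7 TPM after compound 2. CASP6 went the other way, from 50.3 TPM in the DMSO library to 18.3 TPM after compound 1 and 19.8 TPM after compound 2. A gene was counted as past 2-fold when its log2 ratio of TPM + 1 was at least 1 in either direction. After compound 1, 3 of 8 members were past 2-fold (2 higher, 1 lower), against 22.8% of all 11600 genes, of which 14.7% were higher and 8.09% lower. After compound 2 the count was again 3 of 8 (2 higher, 1 lower), against 19.2% of all genes, 12.6% higher and 6.56% lower. At a 1.5-fold line, 6 of 8 members passed after compound 1 and 5 of 8 after compound 2, against 46.2% and 41.4% of all genes. A list of 8 is too small to tell such counts from the share over all genes. XIAP and CASP6 had the highest and lowest log2 ratios of the 8 after either compound. With 1 library per group, the size of their differences has no spread to be judged against. The median log2 ratio of the members was 0.68 after compound 1 and 0.53 after compound 2, beside 0.11 and 0.09 over all genes, and both comparisons use the same DMSO library. With a trend in transcript length and GC composition subtracted, which is described further on, the members' medians were 0.22 and 0.11, and 5 members lay above 0 and 3 below after either compound, in place of 7 and 1. In bulk RNA of this kind, fewer cells that carry an mRNA and less of it per cell cannot be told apart.

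**Figure D1:**
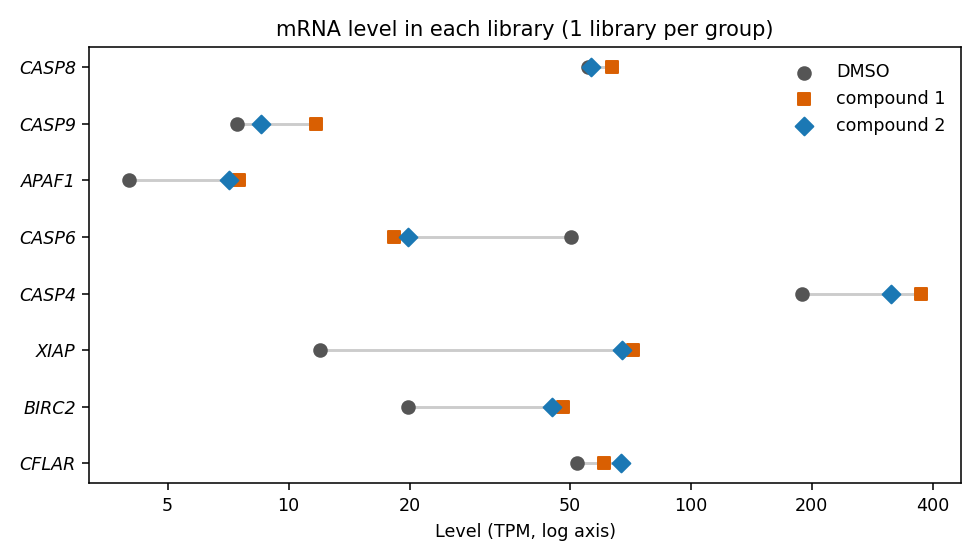
Level of each member in TPM (log axis) in the DMSO, compound 1 and compound 2 libraries, 1 point per library, with a grey line over the range. XIAP moves from 11.96 TPM to 72.1 and 67.7 TPM, CASP6 is at 50.3 TPM in the DMSO library and at 18.3 and 19.8 TPM in the treated ones, and CASP8 stays between 55.5 and 63.7 TPM.

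The order of levels also differed between the libraries. In the DMSO library CASP4 was the most abundant member, followed by CASP8, CFLAR and CASP6 within a narrow band from 50.3 to 55.5 TPM, and then by BIRC2, XIAP, CASP9 and APAF1. XIAP stood behind CASP4, CASP8, CFLAR, CASP6 and BIRC2 with DMSO and behind CASP4 alone after either compound. CASP6 stood above BIRC2 and XIAP with DMSO and below both after either compound. CASP9 and APAF1 were the lowest members in all 3 libraries. With no replicates, the order of close neighbours such as CASP8, CFLAR and CASP6 in the DMSO library cannot be set against a spread.

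XIAP encodes the X-linked inhibitor of apoptosis protein and lies on chromosome X at 123859724 to 123913979 on the plus strand (ENSG00000101966, GRCh38). Its TPM was 6.03-fold higher after compound 1 (log2 ratio 2.50) and 5.66-fold higher after compound 2 (log2 ratio 2.41). Only 109 of the 11600 genes had a higher log2 ratio than XIAP after compound 1, and 99 did after compound 2. In level, XIAP moved from the 50.6th percentile of the genes above 0 in the DMSO library to the 84.1st after compound 1 and the 82.7th after compound 2. Its direction held under all 8 alternative ways of computing the ratio, with log2 ratios from 1.53 to 2.58 after compound 1 and from 1.48 to 2.49 after compound 2. The lowest value of each range came from subtracting a dependence on transcript length and GC composition that is described further on. Of the 31-base words in its longest transcript, 11.9% also occur in other annotated genes, most often in the pseudogene XIAPP1, so some reads cannot be assigned to XIAP alone. XIAP also overlaps 2 annotated genes on the opposite strand and 1 on the same strand, none of which the table lists. The genes with the most similar pair of log2 ratios against DMSO, by Euclidean distance over the 3 libraries, were the phosphatase gene DUSP1 (distance 0.05), the autophagy kinase gene ULK1 (0.06) and the kinase gene MAP3K2 (0.07).

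BIRC2, on chromosome 11 at 102347211 to 102378670 on the plus strand (ENSG00000110330), was at 19.8 TPM in the DMSO library, 48.3 TPM after compound 1 and 45.2 TPM after compound 2. Both treated libraries were higher than the DMSO library, 2.43-fold after compound 1 (log2 ratio 1.24) and 2.28-fold after compound 2 (log2 ratio 1.15). With the trend in length and GC content subtracted, the log2 ratios were 0.57 and 0.48, within 2-fold. BIRC2 shares only 0.915% of its 31-base words with other genes, all of them with BIRC3, so the closeness of the paralogs affects few of its reads.

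CFLAR, on chromosome 2 at 201116104 to 201176687 on the plus strand (ENSG00000003402), was at 52.1 TPM in the DMSO library, 60.9 TPM after compound 1 and 67.1 TPM after compound 2. Its log2 ratios were small, 0.22 after compound 1 and 0.36 after compound 2, and they turned to -0.48 and -0.32 when the trend in length and GC content was subtracted. The gene has 25 annotated transcripts, 18 of them coding, which encode long and short forms of c-FLIP, and a value per gene does not tell these forms apart. CFLAR also overlaps 3 annotated genes on the opposite strand and 2 on the same strand, none of which the table lists, and whether the libraries kept strand is not stated in the sources used here.

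Promoters are shown for the 3 members past 2-fold, so that the sequence around each start can be read beside the values. Each window runs from 250 bases before to 50 bases after a RefSeq gene start (GRCh38.p14, written 5′ to 3′ on the gene's strand), and the table gives 17 such windows for the 8 members, all of which matched by symbol. For XIAP and BIRC2 the first window listed is printed: XIAP at chrX:123859458-123859757 on the plus strand, BIRC2 at chr11:102346964-102347263 on the plus strand and CASP6 at chr4:109703396-109703695 on the minus strand. Capitals mark any match, on either strand, to the motifs searched: NF-kB GGGACTTTC, AP-1 TGACTCA, cAMP response element TGACGTCA, antioxidant response element TGACNNNGC, E2F TTTGGCGC, GC box GGGCGG and CCAAT box CCAAT.
XIAP: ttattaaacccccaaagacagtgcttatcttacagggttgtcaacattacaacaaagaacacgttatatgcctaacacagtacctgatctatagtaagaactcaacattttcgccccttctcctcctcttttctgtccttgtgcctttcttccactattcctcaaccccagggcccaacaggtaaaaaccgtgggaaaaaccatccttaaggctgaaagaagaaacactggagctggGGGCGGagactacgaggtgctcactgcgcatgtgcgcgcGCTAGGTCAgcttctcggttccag
BIRC2: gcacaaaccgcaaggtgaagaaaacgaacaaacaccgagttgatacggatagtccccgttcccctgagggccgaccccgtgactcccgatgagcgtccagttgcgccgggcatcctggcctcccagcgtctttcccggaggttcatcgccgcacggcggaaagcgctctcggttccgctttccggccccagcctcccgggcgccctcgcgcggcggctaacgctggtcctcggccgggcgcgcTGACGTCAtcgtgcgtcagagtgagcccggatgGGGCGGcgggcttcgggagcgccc
CASP6: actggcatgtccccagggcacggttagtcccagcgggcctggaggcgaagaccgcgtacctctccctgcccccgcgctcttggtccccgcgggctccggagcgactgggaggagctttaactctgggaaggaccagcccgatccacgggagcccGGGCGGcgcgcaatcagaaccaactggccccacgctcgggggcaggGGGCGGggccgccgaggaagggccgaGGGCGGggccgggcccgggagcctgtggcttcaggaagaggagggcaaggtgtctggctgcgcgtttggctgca

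Of the motifs searched, the XIAP and BIRC2 windows share only the GC box. The XIAP window holds a GC box and a match to the antioxidant response element, which 13.3% of all 35116 windows also hold. The BIRC2 window holds a GC box and the cAMP response element, a motif found in 1.85% of all windows. The CASP6 window holds 3 GC boxes, a motif present in 45.0% of all windows and in 12 of the 17 windows of the members. Some of those 17 windows overlap, and every member has at least 1 window with the motif. The AP-1 letters were found in 2 of the 17 windows, both of CASP8, against 4.95% of all windows. No window of a member held the NF-kB or E2F letters, which 0.387% and 0.652% of all windows hold, and this says only that those letters are not in these windows. The antioxidant response element and AP-1 letters can overlap, as both start with TGAC. In base composition the CASP6 and BIRC2 windows are rich in G and C (72.0% and 68.7%) and the printed XIAP window is less so (48.0%), with a median of 58.7% over all windows. The other 2 windows of XIAP, which overlap or follow it, have 60.3% and 68.0%, and the one at 68.0% holds no motif searched.

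Among the genes that start caspase activation, APAF1 was higher after both compounds and CASP8 was close to its DMSO level. APAF1, on chromosome 12 at 98645141 to 98735433 on the plus strand (ENSG00000120868), was at 4.01 TPM in the DMSO library, 7.52 TPM after compound 1 and 7.10 TPM after compound 2. Both treated libraries were above the DMSO library and near each other, with log2 ratios of 0.77 and 0.69. The pseudocount matters for a gene this low: with 0.1 in place of 1, the log2 ratios were 0.89 and 0.81, and after trend subtraction they came to 0.08 and 0.11. From the value of a single read in low genes, the APAF1 level in the DMSO library corresponds to about 244 reads if they spread over its longest transcript. That estimate was the lowest of the 8 members in the DMSO library.

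CASP9, the initiator that the apoptosome activates, lies on chromosome 1 at 15490832 to 15526534 on the minus strand (ENSG00000132906). It was at 7.44 TPM in the DMSO library, 11.7 TPM after compound 1 and 8.53 TPM after compound 2. The compound 1 library was the high one, with a log2 ratio of 0.59, while the compound 2 library (0.17) lay nearer to DMSO. CASP9 has the most G and C of the members (52.8% of its longest transcript), and subtracting the length and GC trend moved it little, to 0.65 and 0.20.

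CASP8, the initiator at death receptors, lies on chromosome 2 at 201233443 to 201287711 on the plus strand (ENSG00000064012). It was at 55.5 TPM in the DMSO library, 63.7 TPM after compound 1 and 56.5 TPM after compound 2. These 3 levels are the closest of any member, with log2 ratios of 0.20 and 0.03. The sign is not settled: the log2 ratio after compound 1 was -0.15 with the length and GC trend subtracted, and after compound 2 it was -0.22 there and as low as -0.08 under rescaling of the libraries.

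CASP6, which cuts lamin A among other substrates, was the member with lower mRNA in both treated libraries. It lies on chromosome 4 at 109688622 to 109703583 on the minus strand (ENSG00000138794). The log2 ratio of TPM + 1 was -1.41 after compound 1 and -1.30 after compound 2, and 408 and 433 of the 11600 genes had a lower one. Under the 8 alternatives it ranged from -1.52 to -1.25 after compound 1 and from -1.41 to -1.16 after compound 2, past 2-fold in each. CASP6 has the shortest longest-transcript of the members, 1548 bases, and the trend subtraction left it at -1.27 and -1.17. After that subtraction, 638 and 614 of 11542 genes had a lower value. The CASP6 gene overlaps 2 opposite-strand genes, MCUB by 105 bases and the antisense gene AC004067.1, which the table does not list, by 700 bases. MCUB was at 19.7, 16.7 and 13.2 TPM in the DMSO, compound 1 and compound 2 libraries.

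CASP4 was the most abundant member in every library. It lies on chromosome 11 at 104942866 to 104969436 on the minus strand (ENSG00000196954) and was at 189 TPM in the DMSO library, 375 TPM after compound 1 and 314 TPM after compound 2. Both treated libraries were above DMSO, 1.99-fold after compound 1 (log2 ratio 0.99, just under the 2-fold line) and 1.67-fold after compound 2 (log2 ratio 0.73). With the length and GC trend subtracted, the log2 ratios were 0.35 and 0.11. Its level stood at the 94.3rd percentile of the genes above 0 in the DMSO library and at the 97.5th and 96.7th after compounds 1 and 2. Of its 31-base words 2.35% occur in other genes, most often in CASP5, which was listed at 0 in the DMSO and compound 1 libraries and at 0.10 TPM after compound 2.

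**Figure D2:**
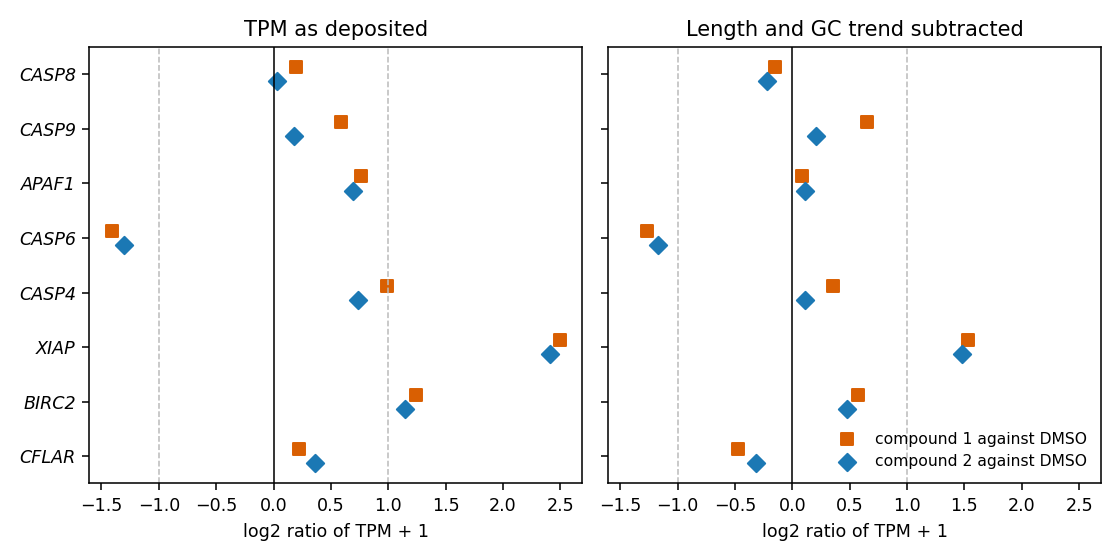
log2 ratio of TPM + 1 against DMSO for each member after compound 1 (squares) and compound 2 (diamonds), from the TPM as deposited (left) and with the medians of length and GC bins subtracted (right); dashed lines mark 2-fold. XIAP stays beyond 2-fold in both panels (2.50 and 2.41, then 1.53 and 1.48), as does CASP6 (-1.41 and -1.30, then -1.27 and -1.17), whereas BIRC2 moves inside (0.57 and 0.48).

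Transcript length and GC content moved with these differences over the whole table. Among the genes with the longest transcripts, from 5412 bases (the upper quartile), the median log2 ratio was 0.48 after compound 1 and 0.44 after compound 2. Among those with the shortest, up to 2378 bases (the lower quartile), it was -0.18 and -0.19. The members spread across this range: the longest annotated transcript has 8591 bases for XIAP, 7055 for APAF1, 4745 for CASP4 and 4073 for BIRC2, but 1548 for CASP6. The 4 members with the highest log2 ratios after both compounds, XIAP, BIRC2, CASP4 and APAF1, are also the 4 with the lowest GC content, from 38.01% to 41.7%. CFLAR, with the longest transcript of all members (14672 bases), did not follow the trend, and its log2 ratios were 0.22 and 0.36. After subtraction of the bin medians, 2 of 8 members were past 2-fold after either compound, XIAP higher and CASP6 lower, against 17.5% of 11542 genes after compound 1 and 14.3% after compound 2. Subtracting the trend took 0.96 off the log2 ratio of XIAP after compound 1 and 0.93 after compound 2, and it left 373 and 336 genes with a higher value than XIAP. What gives rise to the trend was not tested.

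**Figure D3:**
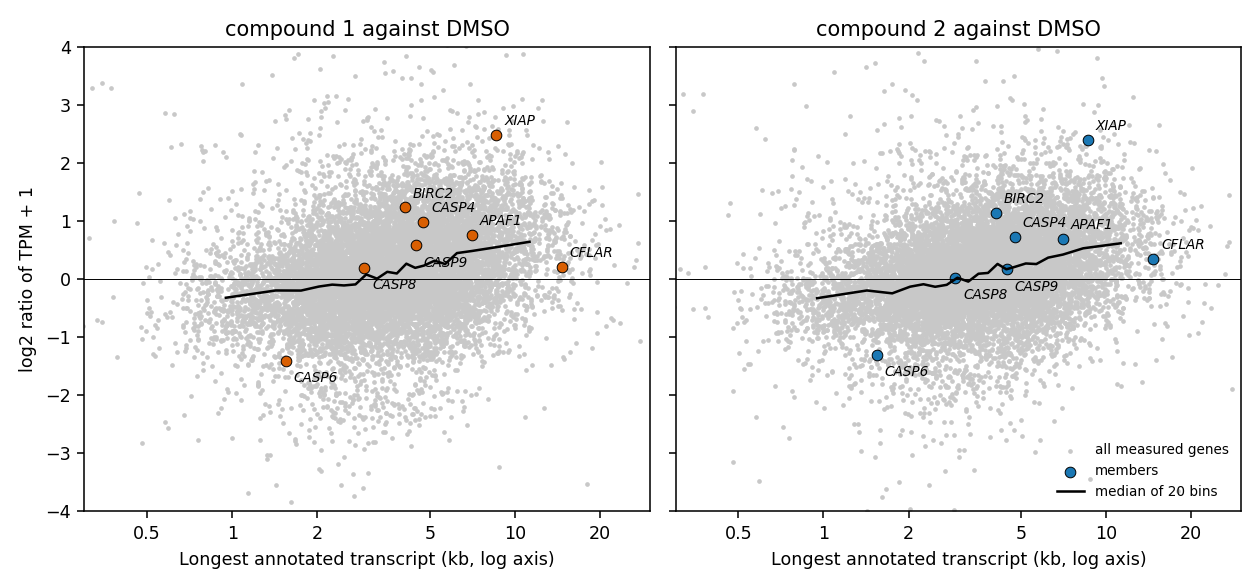
log2 ratio of TPM + 1 against DMSO (vertical axis) by longest annotated transcript in kb (log axis) for measured genes (grey), with the members in colour and the median of 20 length bins as a black line. XIAP lies far above the line and CASP6 far below it after both compounds; 28 genes (compound 1) and 31 genes (compound 2) lie beyond the axes, which end at 4 in either direction and at 0.3 and 30 kb.

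A ratio of 2 members within the same library does not depend on a scale factor for the library, but it still carries the trend with length and GC content where the 2 genes differ in these. XIAP mRNA stood at 1.61 times CASP9 mRNA in the DMSO library, 6.16 times after compound 1 and 7.94 times after compound 2. XIAP mRNA was the higher of the pair in every library. Its log2 ratio against DMSO exceeded that of CASP9 by 1.91 after compound 1 and by 2.23 after compound 2, and by 0.88 and 1.27 after trend subtraction, so the difference kept its direction and was smaller.

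Other pairs moved less or in the other direction. The ratio of BIRC2 to XIAP was 1.66 in the DMSO library and 0.669 and 0.668 after compounds 1 and 2, so their order was exchanged. CFLAR and CASP8, which meet at death receptors, stayed near parity at 0.940, 0.957 and 1.19. APAF1 to CASP9 was 0.539 with DMSO, 0.643 after compound 1 and 0.833 after compound 2, but the order of their changes turned round with the trend subtracted, where the log2 ratios were 0.08 for APAF1 against 0.65 for CASP9 after compound 1 and 0.11 against 0.20 after compound 2. CASP6 mRNA was at 0.908 of the CASP8 level in the DMSO library and at 0.288 and 0.351 of it after compounds 1 and 2, so the executioner moved away from an initiator it had stood close to. The log2 ratio of CASP6 against DMSO minus that of CASP8 was -1.61 and -1.33, and smaller in size, -1.12 and -0.95, after trend subtraction.

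**Figure D4:**
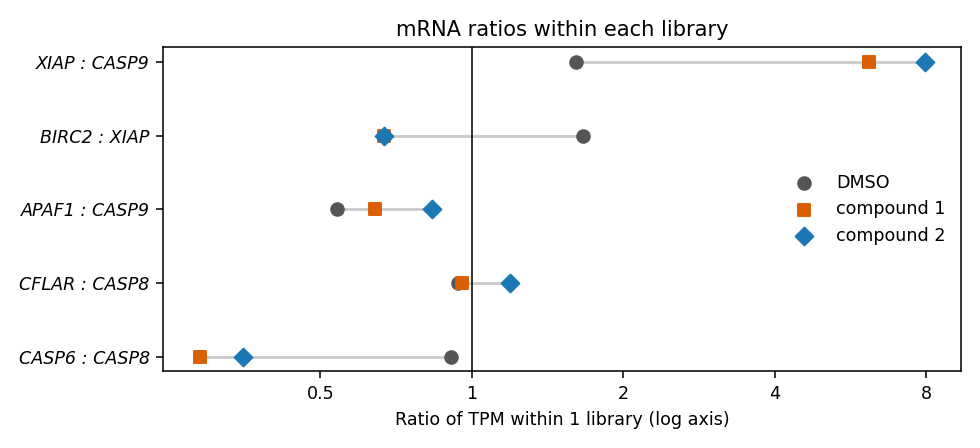
Ratio of TPM of 2 genes within a library (log axis), 1 point each for the DMSO, compound 1 and compound 2 libraries; the vertical line marks equal levels. The ratio of XIAP to CASP9 moves from 1.61 to 6.16 and 7.94 and that of CASP6 to CASP8 from 0.908 to 0.288 and 0.351, while CFLAR to CASP8 stays between 0.940 and 1.19.

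At the matched dose and time, the compounds gave similar values for the members. None of the 8 was past 2-fold between compound 2 and compound 1, as was the case for all but 0.845% of the 11600 genes. The log2 ratios of compound 2 against compound 1 ran from -0.41 for CASP9 to 0.14 for CFLAR, with a median of -0.09 beside -0.01 over all genes. CASP9 had 811 of the 11600 genes below it in that comparison, and CASP4 followed at -0.26. XIAP (-0.09), BIRC2 (-0.09) and APAF1 (-0.07) differed least between the treated libraries. With 1 library of each, no interval can be given for these differences, so they do not show that the compounds act alike.

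Some members lie near each other or near related genes on the chromosomes. CFLAR, CASP10 and CASP8 lie in this order on chromosome 2, BIRC3 and BIRC2 are adjacent on chromosome 11, and CASP4 is followed there by CASP5 and CASP1. BIRC3, which encodes cIAP2, was at 49.2 TPM in the DMSO library, 98.6 TPM after compound 1 and 147 TPM after compound 2, so both neighbours were higher (BIRC3 log2 ratios 0.99 and 1.56). CASP10, between CFLAR and CASP8, was at 8.86, 9.25 and 7.28 TPM (log2 ratios 0.06 and -0.25). Next to XIAP, the cohesin gene STAG2 was at 48.7, 136 and 140 TPM (log2 ratios 1.47 and 1.51), and THOC2 on the other side was at 60.3, 83.6 and 93.4 TPM (0.46 and 0.62). MMP7, which encodes matrilysin, is 2 genes beyond BIRC2 and was lower, at 71.5, 7.50 and 11.9 TPM (-3.09 and -2.49). Over the 20 measured coding genes that lie within 2 places of a member and are not members, 5 were past 2-fold higher and 1 lower after either compound, with medians of 0.16 and 0.25. Over all genes, 14.7% were higher and 8.09% lower after compound 1, and 12.6% and 6.56% after compound 2. The 5 were not the same genes: DNAJC16 passed only after compound 1 (1.02, then 0.93) and BIRC3 only after compound 2.

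The rest of the pathway was followed through 7 lists. Over all 11600 genes, 22.8% were past 2-fold in either direction after compound 1 and 19.2% after compound 2. With the trend subtracted these shares were 17.5% and 14.3%. The lists are too short to tell their counts from these shares. In the list of other caspases reported here, none of the 3 measured genes passed 2-fold after either compound (medians -0.50 and -0.30). CASP2 was at 20.3 TPM with DMSO, 14.1 TPM after compound 1 and 15.9 TPM after compound 2 (log2 ratios -0.50 and -0.34). CASP1, an inflammatory caspase, was at -0.62 and -0.30 from a level of 1.53 TPM, and CASP10 at 0.06 and -0.25. CASP12 and CASP14 were listed at 0 in every library.

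Among the other inhibitor of apoptosis genes and XIAP antagonists, BIRC6 was past 2-fold higher and BIRC5 lower after compound 1, and BIRC3, BIRC6 and BIRC5 in those directions after compound 2, of 5 measured. The medians of that list were 0.85 after compound 1 and 0.51 after compound 2, and 0.15 and 0.28 after trend subtraction. BIRC6, which encodes the very large ubiquitin ligase apollon, was at 8.82, 21.8 and 21.5 TPM in the DMSO, compound 1 and compound 2 libraries (log2 ratios 1.22 and 1.20). BIRC5, which encodes survivin, a protein that also acts in cell division, was at 74.6, 9.49 and 16.0 TPM (-2.85 and -2.15). The IAP family thus did not move together, with XIAP, BIRC2, BIRC3 and BIRC6 higher and BIRC5 lower in both treated libraries. XAF1, which encodes an antagonist of XIAP, was low throughout, at 0.567, 1.83 and 1.23 TPM. With the length and GC trend subtracted, BIRC2, BIRC3 and BIRC6 were within 2-fold after either compound, and XIAP and BIRC5 were not.

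For the proteins that mitochondria release, none of 5 genes passed 2-fold after either compound (medians -0.06 and -0.10). CYCS, the cytochrome c gene, was at 460 TPM with DMSO, 532 TPM after compound 1 and 594 TPM after compound 2 (log2 ratios 0.21 and 0.37). DIABLO, whose protein displaces XIAP from caspases, was at 99.2, 97.6 and 92.5 TPM (-0.02 and -0.10). ENDOG (-0.75 and -0.66) and AIFM1 (-0.48 and -0.49) were lower within 2-fold. The genes of the mitochondrial gate also stayed within 2-fold, all 4 that were measured (medians -0.13 and -0.22). Of these the survival gene MCL1 was at 194, 357 and 329 TPM (0.88 and 0.76), BCL2L1 at -0.25 and -0.61, BAX at -0.36 and -0.44 and BAK1 at -0.02 and -0.01.

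In the death-receptor list, 2 of 14 measured genes were past 2-fold higher and 1 lower after compound 1, and 3 higher and 1 lower after compound 2 (medians 0.08 and 0.23). The share past 2-fold over all genes was 22.8% and 19.2%, so these counts are not a result about the list. CYLD, a deubiquitinase that restrains NF-kB signalling, was at 7.52, 40.1 and 37.2 TPM in the DMSO, compound 1 and compound 2 libraries (log2 ratios 2.27 and 2.16). The TRAIL receptor gene TNFRSF10A was at 23.1, 68.1 and 67.4 TPM (1.52 and 1.5), and TNFRSF10B at 101, 201 and 206 TPM (0.99 and 1.02). Their ligand gene TNFSF10 was low and lower still after treatment, at 3.15, 1.42 and 0.659 TPM (-0.78 and -1.32). TRAF2, the adaptor that brings cIAP1 to TNF receptors, was at 46.0, 19.7 and 23.5 TPM (-1.18 and -0.94), in the opposite direction to BIRC2. After trend subtraction TRAF2 was at -0.79 and -0.62 and TNFRSF10B at 0.84 and 0.90, all within 2-fold, and the list held 2 higher and 0 lower after compound 1 and 2 higher and 1 lower after compound 2.

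In the list of caspase substrates, 2 of 10 genes were past 2-fold higher and 2 lower after compound 1, and 2 higher and 1 lower after compound 2 (medians -0.42 and -0.33). The share over all genes was again 22.8% and 19.2%. LMNB1, the lamin B1 gene, was at 90.7, 15.3 and 20.2 TPM (log2 ratios -2.49 and -2.11), and PARP1, which encodes a DNA repair enzyme cut during apoptosis, at 148, 69.6 and 98.2 TPM (-1.08 and -0.59). The kinase genes ROCK1 (1.62 and 1.46) and PAK2 (1.25 and 1.27) were higher, but with the trend subtracted ROCK1 was at 0.70 and 0.57 and PAK2 at 0.53 and 0.63, and no substrate gene was past 2-fold higher after either compound. In the inflammasome list, 1 of 6 measured genes was past 2-fold higher and none lower after either compound (medians 0.46 and 0.32). That gene was IL1B, the interleukin 1 beta gene, at 5.60, 34.8 and 61.8 TPM (2.44 and 3.25), while IL18 (0.49 and 0.50), AIM2 (0.75 and 0.62) and CARD8 (0.44 and 0.13) stayed within 2-fold. PYCARD, which encodes the adaptor that most inflammasomes need to recruit CASP1, was listed at 0 in the DMSO and compound 2 libraries and at 0.0950 TPM after compound 1, so high CASP4 stood beside very low CASP1 and PYCARD.

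**Figure D5:**
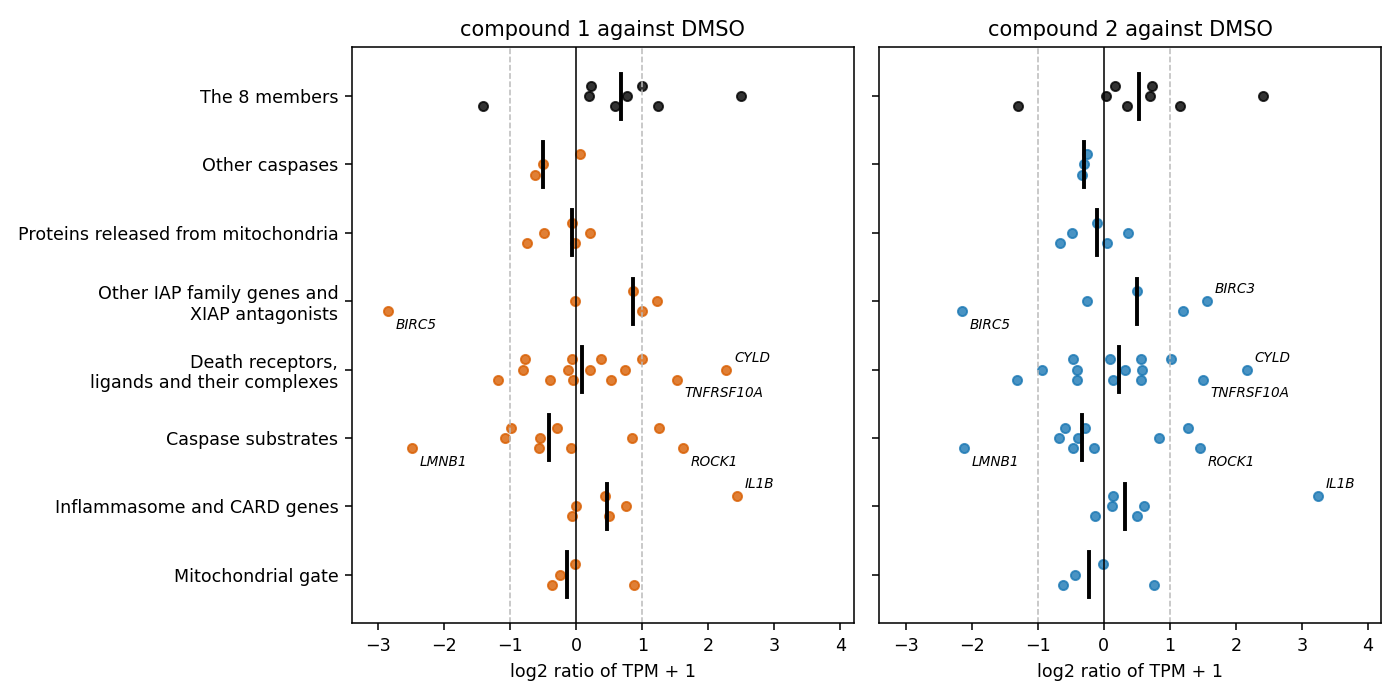
log2 ratio of TPM + 1 against DMSO for the 8 members (black) and the measured genes of 7 pathway lists (coloured), after compound 1 (left) and compound 2 (right); each point is a gene reported here, the black bar is the median of the list and dashed lines mark 2-fold. The medians run from -0.50 for the other caspases to 0.85 for the other IAP genes after compound 1 (0.15 after trend subtraction, which is not drawn). Genes of the 7 lists beyond 1.4 in either direction are named, and the members are not.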

How the data were processed

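mRNA was measured in 3 HCC827 libraries, and samples were grouped by the treatment in the labels. The authors deposited 1 table whose headers name FPKM; because every deposited column adds up to 1000000, its unit was read as TPM. Bowtie 0.12.2 and the builds GRCh38.p12 and mm8 are listed per the submitters' processing notes, with no role or order; the annotation and counting step are not given in the sources used here. TPM is a share, so genes that gain share lower all others. TPM keeps no read counts; from the smallest steps among low genes, 1 read per kb was worth about 0.116, 0.108 and 0.124 TPM in the DMSO, compound 1 and compound 2 libraries.

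Computed here (Python 3.11.15, pandas 2.3.3, numpy 2.4.6) were log2 ratios of TPM + 1 where the mean over libraries reached 1 TPM, checked on simulated data. No test, SD or interval was possible with 1 library per group. GENCODE 29 supplied coordinates, lengths, GC content and shared 31-base words, using the longest transcript, and RefSeq (GRCh38.p14) the promoters. In the trend setting, medians of 20 bins of length and then of 20 bins of GC content were subtracted. Genes named outside the members were up to 4 per list with the largest absolute log2 ratio against DMSO, any other past 2-fold, the 3 genes most like XIAP, and neighbours and genes at or near 0 that were chosen after their values were seen. CARD17 had no row, and some genes of the caspase list are not reported here. The members, lists and alternatives were chosen with earlier results of these data known.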

Additional observations from a re-analysis of the deposited data

Results flagged for a closer look

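CASP10, which encodes the initiator caspase beside CASP8, was the single named gene whose direction against DMSO differed between the compounds. Its log2 ratio was 0.06 after compound 1 and -0.25 after compound 2. With the length and GC trend subtracted, the values were -0.41 and -0.66, so the directions no longer differed. With 1 library per group, the difference between the compounds was not tested.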

How the results depend on the processing

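The count of members past 2-fold against DMSO was 3 of 8 after either compound under pseudocounts of 0.1 and 5, a minimum mean of 5 TPM or none, median-of-ratios and upper-quartile scaling, and rescaling without the mitochondrially encoded genes. It was 2 with the length and GC trend subtracted. At a 1.5-fold threshold it was 6 after compound 1 and 5 after compound 2. Between the compounds it was 0 under all 9 alternatives. Over all genes, the higher share of those past 2-fold was 64.5% after compound 1 and 65.8% after compound 2; median-of-ratios scaling gave 55.8% and 57.9%, upper-quartile scaling 55.9% and 56.3%, and trend subtraction 48.3% and 47.8%, while the members' split was 2 higher and 1 lower, and 1 and 1 after trend subtraction. Median-of-ratios scaling brought the median log2 ratio of all genes to 0.01 after each compound. Among the members, only CASP8 and CFLAR took the other sign against DMSO under any alternative. The cause was not tested. No paired analysis was possible because each group held 1 library, and no library could be left out. Read numbers behind the values are estimates, and spread between cultures is unknown.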
